A study of Homo sapiens with 10 samples.

Results

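The 5p arms of the human microRNAs (miRNAs) miR-6726 to miR-6895 were examined in HuH-7 cells, a long-established line grown from a human liver cancer. Members were chosen by name alone, as every array probe with a 5p name from hsa-miR-6726-5p to hsa-miR-6895-5p. This gave 163 of the 2565 miRNA probes on the array. The 4 probes of lettered 5p arms in this range (miR-6769a, miR-6769b, miR-6780a and miR-6780b) were not matched by that name pattern. The series holds 10 single-colour arrays, 5 of HuH-7 cells treated with 1 µM lenvatinib for 96 h and 5 of HuH-7 cells kept for 96 h without lenvatinib, here called control. Lenvatinib is a drug for liver cancer that blocks several receptor tyrosine kinases, among them those for VEGF and FGF. The purpose given by the title was to find miRNAs tied to its antitumour effect. One line of liver cancer cells was used, with no second line, and the labels do not state that arrays within a group are separate cultures. Each p-value is thus set against array-to-array spread that may be technical, and the number of arrays limits the precision.

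Most miRNAs are cut from long primary transcripts by the nuclear enzyme Drosha with its partner DGCR8, and then by Dicer in the cytoplasm. A mirtron takes a different route, in which a short intron is removed by splicing, the lariat is opened, and the intron folds into a hairpin that goes straight to Dicer. The 5p arm lies at the start of such an intron and the 3p arm at its end, which in nearly all human introns is the dinucleotide AG of the 3′ splice site. MiRNAs pair with messenger RNAs through the seed, bases 2 to 8 of the mature RNA, and largely lower the output of those messages. Little is established about the targets of most miRNAs in this number range, so no target roles are given below.

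The mirtron label was checked against the sequences. RefSeq entries (GRCh38.p14) were found for 139 of the 163 members by miRNA name. The table held a hairpin for 131 of them and none for 8, and 3 members at several loci added 6 further copies, which made 137 hairpins. At 125 of the 131 members (95.4%) every hairpin ended in AG. Counted by hairpin, 131 of the 137 did (95.6%), against 132 of 1423 other human hairpins in the same table (9.28%). The longer ending CAG closed 111 of the 137 (81.0%) and 82 of the 1423 (5.76%), and UAG closed 20 (14.6%) and 14 (0.984%). Only the last bases of the hairpin, read on its own strand, were searched, and CAG and UAG are part of the AG count. The hairpin, or the mature RNA where the table held no hairpin, lay inside the bounds of a protein-coding gene on the same strand for 119 of the 139 members (85.6%). The table gives gene bounds and no exons, so the intron itself was not resolved. Hairpins are shown for the 3 members with the smallest p among those with 1 locus and a hairpin that ends in AG, since they carry the clearest changes below. Capitals mark the 5p arm and the closing AG.
miR-6768: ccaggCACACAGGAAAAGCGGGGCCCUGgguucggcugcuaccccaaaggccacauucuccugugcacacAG
miR-6774: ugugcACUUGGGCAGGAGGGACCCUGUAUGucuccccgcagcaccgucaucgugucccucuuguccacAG
miR-6771: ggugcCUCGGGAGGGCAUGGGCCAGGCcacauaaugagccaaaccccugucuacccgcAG
All 3 lie on the plus strand of chromosome 16, the hairpin of miR-6768 at chr16:2463967-2464038 within TEDC2, that of miR-6774 at chr16:85918347-85918416 within IRF8, and that of miR-6771 at chr16:50292616-50292675 within ADCY7. IRF8 encodes a transcription factor of blood cells and ADCY7 an adenylate cyclase.

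The mature 5p arms were rich in G. Their median G content was 50% and their median C content 14.3% (139 sequences), against 27.3% and 22.7% in 2231 other human mature sequences. The 133 3p arms of the same hairpins were the reverse, with a median of 14.3% G and 45.5% C. A run of GGG in the seed was found in 91 of the 139 members (65.5%) and in 278 of the 2231 other sequences (12.5%). The mature RNAs were 19 to 25 bases long. The first base was U in 60, C in 33, A in 29 and G in 17.

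The sequences of the members with the largest changes are given next, because the results turn on them. Capitals mark the seed. The first 8 rose and the last 5 fell on the lenvatinib arrays.
miR-6816-5p: uGGGGCGGggcaggucccugc
miR-6774-5p: aCUUGGGCaggagggacccuguaug
miR-6800-5p: gUAGGUGAcagucaggggcgg
miR-6789-5p: gUAGGGGCgucccgggcgcgcggg
miR-6768-5p: cACACAGGaaaagcggggcccug
miR-6869-5p: gUGAGUAGuggcgcgcggcggc
miR-6784-5p: gCCGGGGCuuugggugaggg
miR-6771-5p: cUCGGGAGggcaugggccaggc
miR-6759-5p: uUGUGGGUgggcagaagucugu
miR-6777-5p: aCGGGGAGucaggcaguggugga
miR-6822-5p: cAGGGAACcaguuggggcuu
miR-6736-5p: cUGGGUGAgggcaucuguggu
miR-6871-5p: cAUGGGAGuucggggugguugc
Outside chromosome 16, the mature RNAs that rose lie in GRCh38.p14 with miR-6816-5p at chr22:20114726-20114746 (minus strand), miR-6800-5p at chr19:49832022-49832042 (plus strand), miR-6789-5p at chr19:2235899-2235922 (minus strand), miR-6869-5p at chr20:1392940-1392961 (minus strand) and miR-6784-5p at chr17:45114409-45114428 (minus strand). Those that fell lie with miR-6759-5p at chr12:57748656-57748677 (minus strand), miR-6777-5p at chr17:17813518-17813540 (minus strand), miR-6822-5p at chr3:39138211-39138230 (plus strand), miR-6736-5p at chr1:145850620-145850640 (minus strand) and miR-6871-5p at chr20:41169028-41169049 (plus strand). No 2 of these 13 share a seed, and none of the seeds was shared between any of the 22 members with a sequence that rose. GGG stood in the seed of 14 of those 22 and of all 5 members that fell, against 65.5% of all 139 members with a sequence. The share among the rises was thus near that of all members, and 5 falls are few. MiR-6850-5p and miR-6845-5p, also among the 10 largest rises, are named only.

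The arrays of the groups differed in brightness. Blank spots, which carry no probe, measured 62.2 to 85.5 raw intensity units on lenvatinib arrays and 30.9 to 34.6 on control arrays, a ratio of 2.04 with no overlap (exact two-sided permutation test, 5 against 5 arrays, p = 0.00794, the smallest p this design can give). Lenvatinib replicate 5 had the brightest blanks. Over all tested probes its group correlated at 0.938 to 0.982 and the control group at 0.969 to 0.983. The treatment and any difference in array session cannot be told apart. Values below are log2 intensities after subtraction of the background by the authors and quantile normalization, so every change is relative to the bulk of the miRNAs. Of the hepatocyte markers miR-122-5p, miR-192-5p, miR-194-5p, miR-885-5p and miR-148a-3p, 5 of 5 were detected on all 10 arrays. Erythroid, leukocyte and muscle markers, 13 in all, together had summed background-subtracted signals of at most 41.2 units per list on any array, against at least 13390 on lenvatinib arrays and 4888 on control arrays for the hepatocyte list. Of these 13 markers, miR-486-5p was detected on all 10 arrays, at a mean log2 intensity of 3.14 with lenvatinib and 3.11 in control, and miR-144-5p on none. MiR-142-3p was detected on 4 lenvatinib and 5 control arrays, and miR-451a, miR-150-5p, miR-133b and miR-206 on 3 and 5 each. Their part in the results was not tested.

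A larger share of the members than of the whole array was detected throughout. A probe counts as detected where the authors left it a background-subtracted value. Of the 163 members, all 10 arrays detected 99 (60.7%) and no array detected 7 (4.29%), against 868 (33.8%) and 641 (25%) of all 2565 probes. The 164 3p arms of the same numbers were alike, with 102 (62.2%) on all arrays and 5 (3.05%) on none. Other miRNAs numbered 3000 and above were on all arrays for 27.4% of 1112 probes. The 7 members detected nowhere were miR-6733-5p, miR-6739-5p, miR-6770-5p, miR-6773-5p, miR-6811-5p, miR-6836-5p and miR-6882-5p. Another 18 members were detected on 1 to 4 arrays, which left 138 members detected on at least 5 of the 10 arrays, and these were tested.

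The number of members detected overlapped between the groups. It was 120, 139, 134, 133 and 134 on lenvatinib arrays 1 to 5, and 135, 133, 131, 142 and 122 on control arrays 1 to 5. The means were 132 ± 7.11 and 132.6 ± 7.23 (SD, n = 5 each), and differed by -0.60, less than either SD. All 5 lenvatinib arrays detected 105 members, and all 5 control arrays detected 111. No member was detected on all arrays of 1 group and none of the other. The detection limit of each array moves with its blanks. With 1 raw limit for all arrays, 92.1 units, 51 to 134 members reached it on lenvatinib arrays and 6 to 9 on control arrays. This was the limit of lenvatinib replicate 5, and raw values still hold the background, so these counts carry the unequal brightness of the arrays.

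The 163 members gave a small part of the light on each array. Their summed background-subtracted signal was 2.47%, 2.44%, 2.69%, 2.86% and 4.21% of all miRNA signal on lenvatinib arrays 1 to 5, and 1.52%, 1.55%, 1.52%, 1.79% and 1.51% on control arrays 1 to 5. The groups did not overlap, and lenvatinib replicate 5 lay apart from the other 4. Each share was taken within 1 array from background-subtracted signal, so scaling by 1 factor per array would leave it unchanged. The part of the unequal brightness of the arrays in these shares, blank spots included, was not tested.

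Relative to the bulk of the miRNAs, 25 of the 138 tested members rose with lenvatinib, 5 fell and 108 did not pass (limma, Benjamini-Hochberg adjusted p under 0.05 over all 1346 tested probes). Over all tested probes 21.5% passed, 12.1% upward and 9.36% downward, so the members stood above that background upward, at 18.1%, and below it downward, at 3.62%. The 5 lenvatinib values lay wholly above the 5 control values for 26 members and wholly below for 2, where 20.0% of all tested probes had groups that did not overlap, 11.1% upward and 8.84% downward. The median log2 change of the tested members was 0.12, with quartiles of -0.09 and 0.46, against a median of -0.03 over all tested probes. The split moved with the scaling, for the members and for the whole array. When the 75th percentile was the scale, 19 members lay higher (13.8%) and 9 lower (6.52%), against 8.25% and 17.7% of all probes. When the spike controls were, 33 lay higher (23.9%) and 2 lower (1.45%), against 14.6% and 6.17% of all probes. With no scaling, 137 lay higher (99.3%) and 0 lower, against 95.6% and 0.149% of all probes. No test was made of the members as a list. In such bulk RNA, fewer cells with a miRNA and less of it per cell cannot be told apart.

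**Figure D1:**
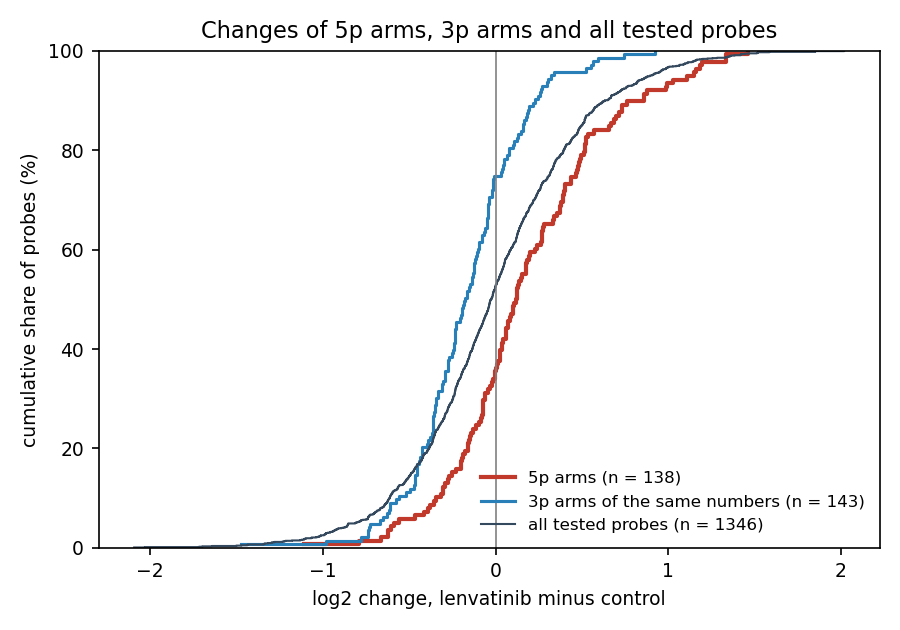
Cumulative share of probes in percent (vertical axis) against log2 change, lenvatinib minus control (horizontal axis), for the 138 tested 5p arms, the 143 tested 3p arms of the same numbers and all 1346 tested probes. The curve of the 5p arms lies to the right of that of all probes (medians 0.12 and -0.03) and that of the 3p arms to the left (median -0.18) over the middle of the range.

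The members' own median depended on the scaling. Its gap to the median of all tested probes was smaller without 1 array and with another background correction. The median change of the members was -0.06 after scaling to the 75th percentile, where that of all tested probes was -0.21, and 1.45 with no scaling, where that of all probes was 1.30. Across these scalings the members' median stayed above that of all probes by 0.14. They differ only by 1 amount per array, the same for every probe, so this gap could hardly have changed between them. Without lenvatinib replicate 5 the members' median was 0.01 against -0.05 over all probes, a gap of 0.06, and 26 of 133 tested members rose (19.5%) while 10 fell (7.52%), against 13.9% and 11.8% of all probes tested there. The gap was 0.02 with normexp background correction, which compresses dim signals.

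**Figure D2:**
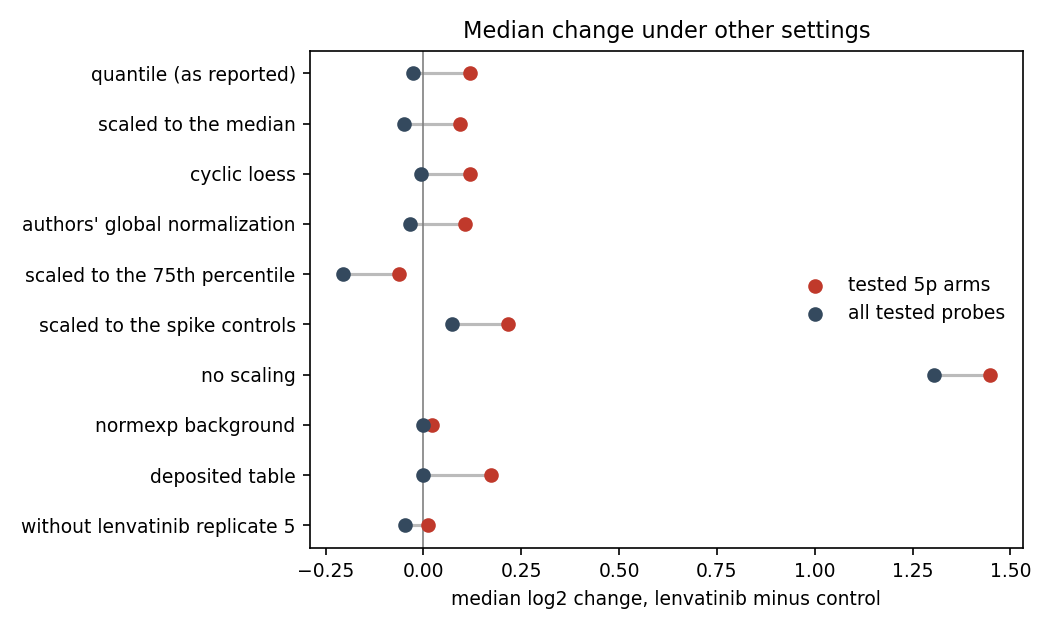
Median log2 change, lenvatinib minus control (horizontal axis), of the tested 5p arms and of all tested probes under 10 settings (vertical axis). The members' point lies to the right of that of all probes under each setting drawn, by 0.02 with normexp correction, by 0.06 without lenvatinib replicate 5 and by 0.13 to 0.17 under the other 8.

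Among the rises, miR-6816-5p had the largest change. Its normalized log2 intensity was 5.53, 5.59, 5.49, 5.61 and 5.21 on lenvatinib arrays 1 to 5, and 4.27, 3.71, 4.37, 3.44 and 4.33 on control arrays 1 to 5. The lowest lenvatinib value lay well above the highest control value, with a wider spread among the controls. The change was 1.46 ± 0.20 on the log2 scale (SE, limma adjusted p = 0.000368), or 2.76-fold. Its hairpin lies within the bounds of TRMT2A, a tRNA methyltransferase gene, whose strand is not given in the tables used here.

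MiR-6768-5p had the smallest p of all members. Its normalized log2 intensity was 6.86, 6.89, 6.89, 6.86 and 6.98 on lenvatinib arrays, and 5.85, 5.76, 5.78, 5.52 and 5.67 on control arrays. The lenvatinib values were nearly equal and none came near the controls. The change was 1.18 ± 0.11 (SE, limma adjusted p = 0.000121), or 2.27-fold. As deposited, before normalization, its background-subtracted intensity was 198.6, 197.9, 217.9, 214.3 and 221.7 on lenvatinib arrays, and 35.3, 29.9, 35.7, 27.6 and 31.2 on control arrays. That gap holds the unequal brightness of the arrays as well as the change of the miRNA relative to the others.

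MiR-6774-5p, whose host IRF8 is a gene of immune cells, measured 4.43, 4.39, 4.64, 4.41 and 4.55 on lenvatinib arrays, and 2.69, 3.49, 3.26, 3.24 and 3.05 on control arrays, a change of 1.34 ± 0.16 (SE, limma adjusted p = 0.000191). The groups lay far apart. MiR-6869-5p, within FKBP1A, the gene of a peptidyl-prolyl isomerase that binds FK506, is a bright probe. It measured 7.61, 7.64, 7.51, 7.61 and 8.17 on lenvatinib arrays, and 6.73, 6.63, 6.58, 6.28 and 6.53 on control arrays, a change of 1.16 ± 0.16 (SE, limma adjusted p = 0.000346). Replicate 5 was the highest lenvatinib array here, and the change without it was 1.07.

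MiR-6800-5p, within MED25, a Mediator subunit gene, spread more widely. It measured 3.18, 3.73, 3.51, 3.56 and 4.16 on lenvatinib arrays, and 1.88, 1.89, 3.05, 2.70 and 1.96 on control arrays. Controls 3 and 4 stood close to the lowest lenvatinib array, and the change was 1.33 ± 0.26 (SE, limma adjusted p = 0.00355). Controls 1, 2 and 5 were barely detected, at background-subtracted intensities of 2.13, 2.71 and 2.02 units. The lowest values detected on those arrays were 1.65, 2.14 and 1.97. The size of this change thus leans on values near the floor, and it was 0.18 with normexp correction. MiR-6789-5p, within PLEKHJ1, was detected on all 5 lenvatinib arrays and on 3 of the 5 control arrays. It measured 2.73, 3.12, 3.26, 2.90 and 2.61 on lenvatinib arrays, and 1.87, 1.63, 1.88, 1.63 and 1.63 on control arrays, where the values of controls 2 and 5 are the floor given to undetected probes and control 4 was detected just above it. Its change of 1.20 ± 0.15 (SE, limma adjusted p = 0.000246) therefore depends on that floor.

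MiR-6784-5p, within PLCD3, a phospholipase C gene, measured 6.56, 6.42, 6.55, 6.73 and 7.66 on lenvatinib arrays, and 5.60, 5.54, 5.52, 5.86 and 5.64 on control arrays. Replicate 5 stood well above the other lenvatinib arrays, and the change was 1.15 ± 0.22 with it (SE, limma adjusted p = 0.00286) and 0.93 without it. MiR-6771-5p measured 4.17, 4.08, 4.14, 4.34 and 4.19 on lenvatinib arrays, and 3.29, 3.01, 3.19, 3.07 and 3.41 on control arrays, a change of 0.99 ± 0.12 (SE, limma adjusted p = 0.000246). MiR-6850-5p and miR-6845-5p rose by 1.11 and 1.03, with no overlap between the groups.

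The 10 largest rises kept their call and direction in every alternative in which they were tested, 24 for 9 of them and 22 for miR-6789-5p. They were picked as the largest in these data, and the alternatives reuse the same arrays. With no scaling 95.6% of all tested probes lay higher, so that alternative could hardly have lost a rise. The sizes of these 10 rises held less well. With normexp correction they ran from 0.14 for miR-6789-5p to 0.81 for miR-6869-5p.

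The other 15 members that rose had changes from 0.38 to 0.99. MiR-6802-5p, within PPP6R1, a phosphatase regulatory subunit gene, changed by 0.99, and miR-6765-5p, within JAG2, a Notch ligand gene, by 0.88. MiR-6877-5p, within GTF3C5, changed by 0.86 and miR-6826-5p, within COPG1, by 0.86. MiR-6870-5p, within JAG1, another Notch ligand gene, changed by 0.51, and miR-6781-5p, within the autophagy gene BECN1, by 0.70. The rest were miR-6727-5p (0.76), miR-6808-5p (0.73), miR-6819-5p (0.72), miR-6892-5p (0.67), miR-6807-5p (0.66), miR-6749-5p (0.52), miR-6760-5p (0.52), miR-6861-5p (0.48) and miR-6762-5p (0.38). MiR-6892-5p was detected on 4 lenvatinib and 2 control arrays. These 15 lay outside the rule for naming, apart from miR-6727-5p and miR-6819-5p, and are named to complete the list.

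**Figure D3:**
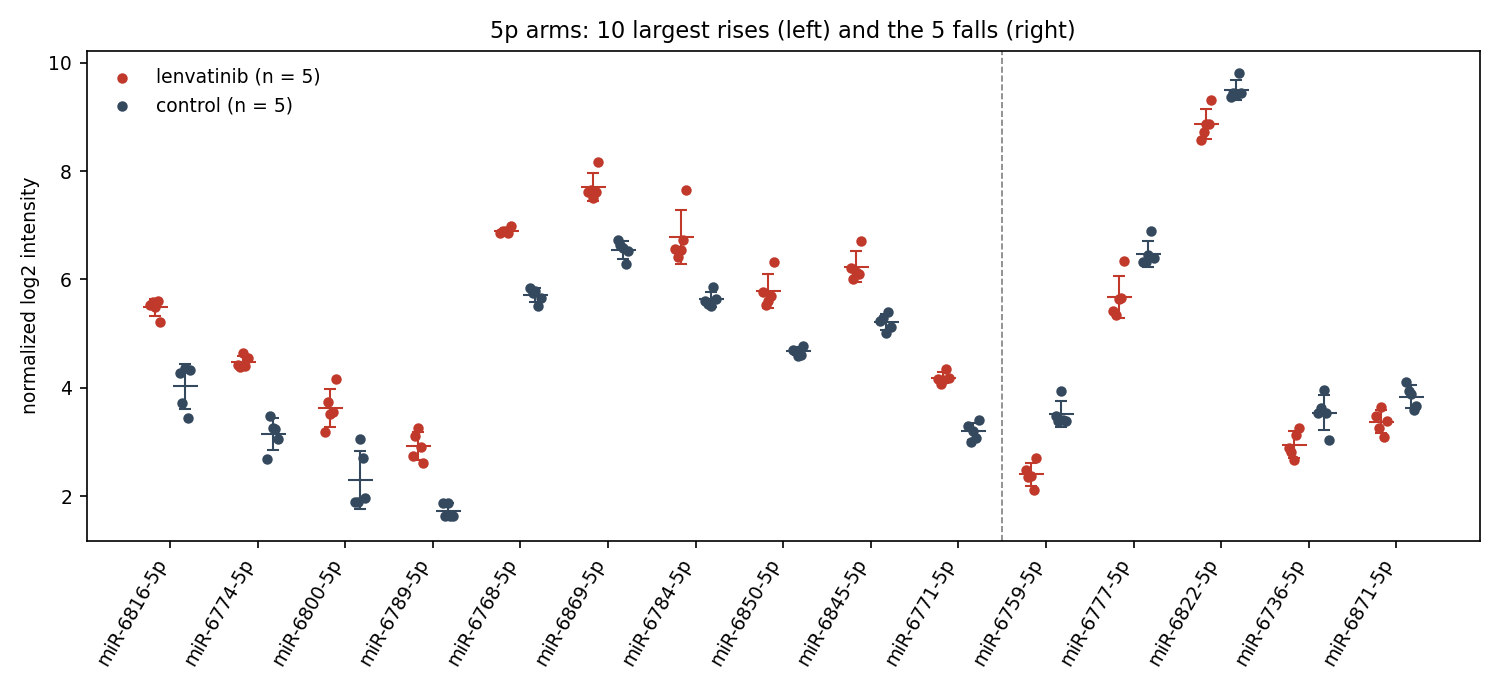
Normalized log2 intensity (vertical axis) of the 10 largest rises and the 5 falls among the 5p arms (horizontal axis), with a point per array, lenvatinib left of control, and bars for mean ± SD (n = 5 per group). The 10 rises show no overlap between the groups, while among the falls the groups overlap for miR-6777-5p, miR-6736-5p and miR-6871-5p. With no scaling all 5 falls turned upward.

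The 5 falls were smaller on the whole and less stable. MiR-6759-5p, within CDK4, the gene of a G1 cyclin-dependent kinase, measured 2.47, 2.35, 2.37, 2.12 and 2.71 on lenvatinib arrays, and 3.47, 3.38, 3.94, 3.40 and 3.38 on control arrays. Every lenvatinib value lay under every control value. The probe is dim. Its background-subtracted intensity as deposited was 7.27 to 11.5 units on lenvatinib arrays, where the lowest detected values were 3.80 to 6.57. On control arrays it was 6.31 to 9.61 units, where the lowest detected values were 1.65 to 2.14. The change was -1.11 ± 0.16 on the log2 scale (SE, limma adjusted p = 0.000459), or 2.16-fold lower. With normexp correction it was -0.15 and still passed (adjusted p = 0.00225), and with no scaling it turned to 0.19.

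MiR-6822-5p, within TTC21A, was the brightest member on average. It measured 8.58, 8.72, 8.87, 8.87 and 9.31 on lenvatinib arrays, and 9.36, 9.44, 9.41, 9.81 and 9.44 on control arrays. Only lenvatinib replicate 5 came close to the controls. The change was -0.62 ± 0.16 (SE, limma adjusted p = 0.0160), or 1.54-fold lower. Its background-subtracted intensity as deposited was higher with lenvatinib, at 601 to 965 units against 394 to 540 on control arrays, and with no scaling the change turned to 0.74.

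MiR-6777-5p, within SREBF1, the gene of the lipogenic transcription factor SREBP1, measured 5.42, 5.35, 5.64, 5.66 and 6.33 on lenvatinib arrays, and 6.32, 6.32, 6.44, 6.89 and 6.39 on control arrays. Lenvatinib replicate 5 overlapped the controls. The change was -0.79 ± 0.20 (SE, limma adjusted p = 0.0145) with it and -0.95 without it. The call was lost after scaling to the spike controls (-0.49, adjusted p = 0.0734), and with no scaling the change turned to 0.74.

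MiR-6736-5p, within PIAS3, an inhibitor of STAT3, changed by -0.59 ± 0.18 (SE, limma adjusted p = 0.0399) and miR-6871-5p, within PLCG1, a phospholipase C activated by receptor tyrosine kinases, by -0.47 ± 0.15 (limma adjusted p = 0.0466). The groups overlapped for both. MiR-6736-5p measured 2.67 to 3.26 on lenvatinib arrays and 3.04 to 3.96 on control arrays, and miR-6871-5p 3.09 to 3.65 and 3.59 to 4.10. Their calls held in 11 and 12 of 24 alternatives. With normexp correction the changes were -0.09 for both (adjusted p = 0.0564 for miR-6736-5p and 0.0461 for miR-6871-5p). The adjusted p ran from 0.00956 to 0.117 for miR-6736-5p and from 0.000424 to 0.111 for miR-6871-5p, with the lowest value of each under no scaling, where the changes turned to 0.71 and 0.82.

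The 8 brightest members, by mean log2 intensity over all arrays, were miR-6822-5p, miR-6729-5p, miR-6743-5p, miR-6786-5p, miR-6727-5p, miR-6869-5p, miR-6803-5p and miR-6805-5p. Spot brightness reflects the probe as well as the RNA, so this order is one of spots and not of amounts. MiR-6869-5p and miR-6727-5p rose and miR-6822-5p fell. MiR-6727-5p, within INTS11, an Integrator subunit gene, measured 7.76, 7.80, 7.83, 7.98 and 8.82 on lenvatinib arrays, and 7.28, 7.07, 7.26, 7.44 and 7.34 on control arrays, a change of 0.76 ± 0.20 (SE, limma adjusted p = 0.0193) that was 0.58 without lenvatinib replicate 5.

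Another 3 bright members lay above 0 without passing. MiR-6805-5p, within the ribosomal protein gene RPL28, differed by 0.57 (limma adjusted p = 0.0675), miR-6786-5p, within HGS, by 0.52 (limma adjusted p = 0.0780) and miR-6729-5p, within MIIP, by 0.47 (limma adjusted p = 0.0948). The lenvatinib and control arrays did not overlap for miR-6805-5p and miR-6786-5p, yet lenvatinib replicate 5 was far above the other 4. MiR-6805-5p measured 6.84 to 7.02 on 4 lenvatinib arrays and 7.95 on replicate 5, against 6.43 to 6.65 on control arrays. Without replicate 5 the differences were smaller but passed for miR-6805-5p (0.37, adjusted p = 0.0140) and miR-6786-5p (0.35, adjusted p = 0.0238). The other bright members, miR-6743-5p and miR-6803-5p, differed by 0.04 ± 0.15 and -0.15 ± 0.19 (SE), less than the spread between arrays.

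The counts were also read by mean log2 intensity, beside the other tested probes. At 5 and above, 12 of 33 members rose (36.4%) and 2 fell (6.06%), with a median change of 0.37, against 23.9% and 21.7% of 272 other probes, with a median of -0.003. From 4 to below 5, 3 of 23 members rose (13.0%) and 0 fell, against 17.0% and 18.9% of 106 other probes. From 3 to below 4, 7 of 39 members rose (17.9%) and 2 fell (5.13%), against 8.60% and 7.53% of 279 other probes. Under 3, 3 of 43 members rose (6.98%) and 1 fell (2.33%), against 5.63% and 3.81% of 551 other probes. The share that rose was thus highest in the brightest bin for members and for other probes alike. Over the 118 tested members with a sequence, mean log2 intensity and log2 change had a Pearson correlation of 0.23 and a Spearman correlation of 0.26, given as a description across probes that share the same 10 arrays.

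The change was also set against base content. Over these 118 members the share of G and C together and the log2 change had a Pearson correlation of 0.39 and a Spearman correlation of 0.36, while for the share of G alone they were 0.13 and 0.15. Over the 1053 other tested probes with a sequence they were 0.24 and 0.19 for G and C together, and 0.30 and 0.29 for G alone. At 50% G and above, 17 of 70 members rose (24.3%), against 30.1% of 156 other probes. From 40% to below 50% G, 3 of 29 members rose (10.3%), against 14.4% of 146 other probes, and below 40%, 2 of 19 (10.5%), against 7.46% of 751. Among members with at least 70% G and C, 9 of 28 rose and 0 fell, with a median change of 0.39. From 60% to below 70%, 10 of 52 rose and 4 fell, with a median of 0.05. Below 60%, 3 of 38 rose and 1 fell, with a median of 0.03.

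The other tested probes were divided by G and C in the same way. At 70% G and C or above, 45 of 143 rose (31.5%), close to the 32.1% of members, and 7 fell, with a median change of 0.24. From 60% to below 70%, 28 of 284 rose (9.86%), against 19.2% of members. Below 60%, 51 of 626 rose (8.15%), against 7.89% of members, and 79 fell (12.6%), against 2.63%. The groups of arrays differed in blank brightness, and the part of probe chemistry or brightness in the relation with base content was not tested.

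**Figure D4:**
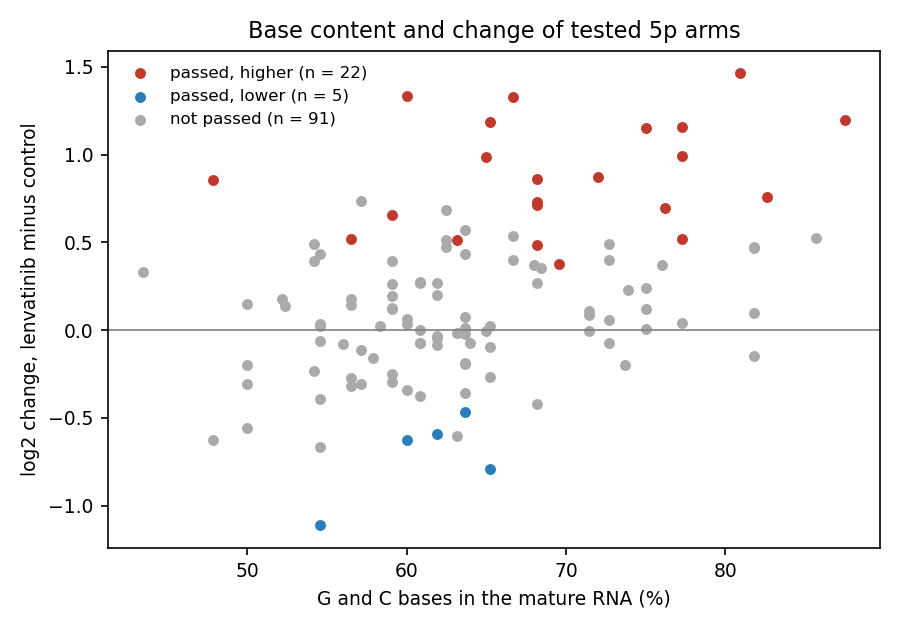
Log2 change, lenvatinib minus control (vertical axis), of the 118 tested 5p arms with a sequence against the percentage of G and C bases in the mature RNA (horizontal axis), with a point per miRNA coloured by whether it passed. All 5 falls lie below 70% G and C, and 9 of the 22 rises lie at 70% or above.

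The 139 members with a sequence carried 130 distinct seeds. Only 8 seeds occurred in more than 1 member, 17 members in all. They are shown because miRNAs with 1 seed pair with overlapping sets of messages. Capitals mark the seed.
miR-6819-5p: uUGGGGUGgagggccaaggagc
miR-6737-5p: uUGGGGUGgucggcccuggag
miR-6812-5p: aUGGGGUGagauggggaggagcagc
miR-6822-5p: cAGGGAACcaguuggggcuu
miR-6750-5p: cAGGGAACagcugggugagcugcu
miR-6777-5p: aCGGGGAGucaggcaguggugga
miR-6889-5p: uCGGGGAGucugggguccggaau
miR-6795-5p: uGGGGGGAcaggaugagaggcugu
miR-6887-5p: uGGGGGGAcagauggagaggaca
miR-6751-5p: uUGGGGGUgagguuggugucugg
miR-6803-5p: cUGGGGGUggggggcugggcgu
miR-6856-5p: aAGAGAGGagcaguggugcugugg
miR-6758-5p: uAGAGAGGggaaggaugugaugu
miR-6865-5p: uAGGUGGCagaggagggacuuca
miR-6815-5p: uAGGUGGCgccggaggagucauu
miR-6733-5p: uGGGAAAGacaaacucagaguu
miR-6739-5p: uGGGAAAGagaaagaacaagua
The last pair shares its seed with miR-3153 as well.

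In no seed group did more than 1 member pass. Groups with 1 or no tested member could not have had more. Over all tested probes 21.5% passed, so few passes were likely in groups this small, and nothing about seeds is read from this. In the group of 3, miR-6819-5p, within the myosin gene MYH9, rose by 0.72 ± 0.16 (SE, limma adjusted p = 0.00906), and its call was lost after scaling to the 75th percentile (0.53, adjusted p = 0.0683). MiR-6737-5p, within the zinc transporter gene SLC39A1, differed by 0.11 ± 0.14, and miR-6812-5p, within PIGT, by -0.07 ± 0.18. MiR-6819-5p measured 4.57, 4.62, 4.55, 4.58 and 5.06 on lenvatinib arrays, and 3.82, 3.93, 3.66, 4.36 and 4.04 on control arrays.

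MiR-6822-5p fell, while miR-6750-5p with the same seed differed by 0.68 ± 0.25 (SE, limma adjusted p = 0.0769). MiR-6750-5p was detected on 4 lenvatinib arrays and 1 control array, so its value leans on the floor. MiR-6777-5p fell, while miR-6889-5p, within RANGAP1, differed by 0.02 ± 0.30. MiR-6795-5p, within the Notch receptor gene NOTCH3, and miR-6887-5p, within FXYD3, differed by 0.48 ± 0.25 and 0.28 ± 0.15. MiR-6751-5p and miR-6803-5p differed by -0.38 ± 0.27 and -0.15 ± 0.19. MiR-6856-5p and miR-6865-5p differed by 0.03 ± 0.19 and -0.27 ± 0.25, and their seed partners miR-6758-5p and miR-6815-5p were detected on too few arrays to be tested. MiR-6733-5p and miR-6739-5p were among the 7 members detected on no array. Differences between members of 1 seed group were not tested.

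Several members sit in the same host gene. Within PPP6R1, miR-6802-5p rose by 0.99, while miR-6803-5p and miR-6804-5p differed by -0.15 and -0.03 (limma adjusted p = 0.656 and 0.954). Within ATG2A, an autophagy gene, miR-6749-5p rose by 0.52 (limma adjusted p = 0.0314) and miR-6750-5p differed by 0.68 (adjusted p = 0.0769). Within GTF2F1, a subunit gene of the general transcription factor TFIIF, miR-6885-5p and miR-6790-5p differed by 0.37 and 0.15 (adjusted p = 0.0668 and 0.684). Within KDM5C, a histone demethylase gene, miR-6894-5p and miR-6895-5p differed by 0.51 and -0.04 (adjusted p = 0.0655 and 0.898). In all, 2 of these 9 members passed, a share near the 21.5% of all tested probes.

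By profile over the 10 arrays, the members most like miR-6768-5p were miR-6869-5p (Pearson r = 0.972), miR-6771-5p (0.967) and miR-6789-5p (0.951). These values hold the difference between the groups. After each group's mean was removed they were 0.758, 0.146 and 0.179.

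The opposite arms of the same hairpins were counted as well. After quantile normalization, 1 of the 143 tested 3p arms rose (0.699%) and 13 fell (9.09%), with a median log2 change of -0.18. Over all tested probes 12.1% rose and 9.36% fell, so the share of 3p arms that fell was near that background. Both arms were tested for 121 hairpins, the 5p change was above the 3p change in 84, and both arms passed in the same direction in 0. As only 1 3p arm rose and only 5 5p arms fell, few such pairs were possible. In 4 hairpins the 5p arm rose and the 3p arm fell, by 1.15 and -0.74 for miR-6784, 0.88 and -1.47 for miR-6765, 0.52 and -0.63 for miR-6760, and 0.38 and -0.46 for miR-6762.

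Mirtrons with older names were counted in the same way. Of 24 probes for miR-877, miR-1224 to miR-1229, miR-1231, miR-1233, miR-1234 and miR-1236 to miR-1238, 20 were tested. Of these, 5 rose (25%) and 0 fell, against 12.1% and 9.36% of all tested probes. Their median log2 change was 0.13. The rises, 4 of 5p arms and 1 of a 3p arm, were miR-1237-5p (1.16 ± 0.18, SE, limma adjusted p = 0.000721), miR-1229-5p (1.14), miR-1234-3p (1.09), miR-1228-5p (0.98) and miR-1227-5p (0.67). MiR-877-5p, from an intron of ABCF1, differed by 0.18 (limma adjusted p = 0.620). Other miRNAs numbered 3000 and above had 70 of 470 higher (14.9%), 38 lower (8.09%) and a median of 0.06. Those numbered under 1000 had 47 of 487 higher (9.65%), 66 lower (13.6%) and a median of -0.12.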

How the data were processed

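Single-colour miRNA arrays of Cy5-labelled RNA were used, per the labels' protocols. The extraction label names serum, while the source labels name HuH-7. Each deposited file holds raw intensity, background-subtracted intensity and globally normalized intensity, all linear, per the file headers. Background-subtracted intensities were used as the authors deposited them. Spots marked NG, of which the members had 0, were left out. Undetected probes were given the smallest value detected on the same array. Intensities were then put on the log2 scale, quantile normalized and tested with limma 3.58.1 in R 4.3.3 (two-sided moderated test, no replicate block) on the 1346 probes detected on at least 5 of 10 arrays. P-values were adjusted by Benjamini-Hochberg over all of them, with a threshold of 0.05. The deposited table of the whole series (linear, normalized intensity of 803 probes, 96 of them members) was an alternative.

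Named members were the 10 largest rises and falls that passed, the 8 brightest, up to 3 detected in 1 group only (there were 0), those of the largest shared-seed groups (groups of equal size were all kept) and the 3 with the profile most like that of the member with the smallest p. The members and lists were chosen with earlier results of these data known. Sequences are from RefSeq, GRCh38.p14.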

Additional observations from a re-analysis of the deposited data

Results flagged for a closer look

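In 18 of 70 groups of 5 arrays examined, 1 array stood apart from the other 4 by Dixon's test at its 95% level, where chance gives about 1 in 20. The ratio of the gap to the range is given for each. Lenvatinib replicate 5 was the high array for miR-6768-5p (0.738), miR-6869-5p (0.798), miR-6784-5p (0.751), miR-6729-5p (0.762), miR-6786-5p (0.747), miR-6727-5p (0.791), miR-6803-5p (0.749), miR-6805-5p (0.831), miR-6819-5p (0.865) and miR-6795-5p (0.760). It was also the high array for the members' share of signal (0.765), at 4.21% against 2.44% to 2.86% on the other lenvatinib arrays, and for the blank spots (0.883), at 85.5 against 62.2 to 64.9 units.

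Lenvatinib replicate 4 was the low array for miR-6751-5p (0.807), where the probe was not detected. Among control arrays, replicate 4 was high for miR-6777-5p (0.784), miR-6822-5p (0.821) and the members' share of signal (0.885). Replicate 3 was high for miR-6759-5p (0.828), and replicate 2 was the 1 control array that detected miR-6750-5p (1.00).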

How the results depend on the processing

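The 25 rises numbered 19 to 33 and the 5 falls 2 to 10 over the alternatives other than no scaling. Scaling to the 75th percentile gave 19 higher and 9 lower with a median of -0.0634, scaling to the spike controls 33 higher and 2 lower, a floor lowered by 1 log2 unit 3 lower, and no scaling 137 higher and 0 lower with a median of 1.45. With no scaling the array floors also differed. Leaving out 1 array gave 19 to 26 higher, 3 to 10 lower, a median of 0.0131 to 0.147 and a difference in members detected of -3.25 to 2.40. Without control replicate 1, 2 or 3 or lenvatinib replicate 1 or 2, 3 fell, and without lenvatinib replicate 5, 10 fell. With 1 raw limit, lenvatinib arrays detected 64.4 more members, a difference that carries the unequal brightness of the arrays. The replicate block gave 20 higher and 4 lower. The labels state no pairing, so the numbers were not taken as pairs. Arrays of the same number had deviations correlated at 0.000846 to 0.140, and 3 of 5 lenvatinib arrays matched their own number best. Whether arrays of 1 number belong together was not tested, and the counts with the block were the lower ones.

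Signs turned with no scaling for miR-6759-5p (0.19), miR-6777-5p (0.74), miR-6822-5p (0.74), miR-6736-5p (0.71), miR-6871-5p (0.82), miR-6803-5p (1.40), miR-6812-5p (1.30), miR-6865-5p (1.03) and miR-6751-5p (0.89). Members that had not passed also turned. After scaling to the median these were miR-6803-5p (0.0399), miR-6856-5p (-0.0235) and miR-6889-5p (-0.00059), to the 75th percentile miR-6743-5p (-0.0231), miR-6737-5p (-0.13), miR-6856-5p (-0.18) and miR-6889-5p (-0.16), and to the spike controls miR-6803-5p (0.16) and miR-6812-5p (0.0715). With the authors' global normalization miR-6803-5p (0.0533) and miR-6856-5p (-0.0101) turned, and in the deposited table miR-6889-5p (-0.00489). Leaving out 1 array in turn gave values on both sides of 0 for miR-6856-5p (-0.108 to 0.127), miR-6889-5p (-0.186 to 0.188), miR-6743-5p (-0.0754 to 0.0861) and miR-6812-5p (-0.193 to 0.0286). The causes were not tested. Over 31 named members, 647 values kept sign and call, 25 lost the call, 32 gained it and 29 turned.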

Other observations

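A few members differed in detection by 3 or more arrays between the groups, and they are named after their values were seen. MiR-6750-5p and miR-6832-5p were each detected on 4 lenvatinib arrays and 1 control array, and miR-6878-5p on 3 and 0. MiR-6867-5p went the other way, on 2 lenvatinib arrays and 5 control arrays. Over all members, 18 were detected on more lenvatinib than control arrays, 27 on more control arrays and 118 on as many of both.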
